A study of Homo sapiens with 7 samples.

Results

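The loops described here are the best supported CTCF loops of wild-type HEC-1-B cells, a human uterine adenocarcinoma line: 331 of the 19313 loops in the wild-type CTCF list. They were chosen by their count in that list, 20 or more, so the wild-type CTCF counts and everything set against them are a description and carry no test. A loop here is a pair of chromosome segments (anchors) that HiChIP found joined, and its count is the whole number deposited with it, taken as supporting read pairs. HiChIP joins neighbouring cut ends of crosslinked chromatin and pulls down the joined pieces with an antibody.

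The series held 7 libraries, 1 per group, so no difference has a replicate check and no p-value is given. Unmodified HEC-1-B cells were profiled with antibodies against ZNF143, CTCF and RAD21. Cells of genotype ZNF143KO were profiled for CTCF and RAD21, and CTCF-AID cells were profiled for ZNF143 after 0 h or 24 h of auxin (IAA), which triggers breakdown of a protein carrying the AID tag in cells that express TIR1. The labels do not say how many clones stand behind ZNF143KO or CTCF-AID, and the 0 h library carries the AID tag as well, so the untagged line is not its match. Neither the loss of ZNF143 nor that of CTCF can be checked from loop lists of the other protein, and loop lists hold no marker gene levels with which to check the cell line.

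CTCF is a zinc-finger protein that binds an oriented DNA motif, and cohesin, of which RAD21 is a subunit, is a ring that extrudes chromatin loops. Cohesin tends to halt where it meets CTCF bound in the facing direction, which leaves a loop between a pair of CTCF sites. Such loops frame domains and bring enhancers and promoters together, and clustered genes such as the protocadherins are a known example. ZNF143 is a zinc-finger activator that binds many promoters.

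The 331 loops made up 1.71% of the wild-type CTCF loops and held 15.7% of the list's total count (12684 of 80726). Their counts ran from 20 to 401, with a median of 29 and quartiles of 22 and 40. Of the remaining loops 964 had a count of 10 to 19 and 18018 a count of 2 to 9. The choice of 20 did not fall in a gap, since 37 loops had a count of 20 and 39 had a count of 19. Just inside it lay loops starting at chr5:131840645, chr17:48103807 and chr12:54687409, with 9, 8 and 3 CTCF counts in ZNF143KO. Just outside it lay loops starting at chr1:32402898, chr17:39818359 and chr3:50283034, with 14, 35 and 16.

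Total counts of the lists ran from 33460 (RAD21 in ZNF143KO) to 143119 (ZNF143 in CTCF-AID at 0 h). They are sums over listed loops and not sequencing depths, which are unknown. Lists start at a count of 2, so a loop that is not listed is not shown to be absent. The ZNF143KO and wild-type ZNF143 lists have another column layout than the wild-type CTCF and RAD21 lists. In the comparison of ZNF143KO with wild type, the layout and the genotype cannot be told apart. Even counts made up 89.5% and 86.8% of loops in the CTCF-AID lists and 68.1% to 74.6% in the other 5.

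A loop was called listed in another library when both its anchors, each extended by 5 kb, overlapped the anchors of a loop there, and the highest count among such loops was taken. This can lend a loop the count of a stronger neighbour up to 5 kb away. It did so for the wild-type RAD21 count of 21 members and for the ZNF143KO CTCF count of 24, and the values without the extension are given where this matters. Intervals are at 95%. Those of shares and single ratios are exact and cover counting error only, while those of medians reflect the spread between loops. None covers differences between libraries. Copies of 1 molecule and loops sharing an anchor are not independent.

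The strongest loops are described first, with positions in hg19 and counted from 1. Gene names beside them are background from general knowledge of that build. No GRCh37 annotation was used, so no anchor was intersected with a gene, and only the chromosome and the neighbour order of these genes were checked, in a RefSeq table of GRCh38.

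The loop with the highest count joined chr16:55498344-55499850 to chr16:55735210-55738250, a span of 237.6 kb measured between anchor midpoints. Its wild-type counts were 401 for CTCF, 432 for RAD21 and 4 for ZNF143. In ZNF143KO the CTCF count was 70, a ratio of 0.175 (0.133 to 0.225), and the RAD21 count was 78, a ratio of 0.181 (0.140 to 0.230). ZNF143 in CTCF-AID cells was counted 8 times at 0 h and was not listed at 24 h. CTCF and RAD21 were thus high together and low together, and the ZNF143 counts were far below both. This stretch holds MMP2, a gelatinase of the extracellular matrix, and reaches SLC6A2, the noradrenaline transporter, with LPCAT2 and CAPNS2 in between. A shorter loop of 78.7 kb from the same first anchor had a CTCF count of 88 in wild type and 19 in ZNF143KO.

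The second joined chr5:140254134-140256182 to chr5:140418923-140421630 over 165.1 kb, in the clustered protocadherin region. Protocadherin alpha genes encode neuronal cell-surface adhesion proteins, and each cell uses few of them, picked through promoter looping to a downstream enhancer. The first anchor lies near PCDHA12, and the second lies downstream of PCDHAC2. Counts were 261 for CTCF and 378 for RAD21 in wild type, the largest excess of RAD21 over CTCF among the 12 strongest loops at 1.45 times. They were 37 and 65 in ZNF143KO, ratios of 0.142 (0.0976 to 0.201) and 0.172 (0.130 to 0.224). ZNF143 had a count of 2 in wild type.

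The third joined chr17:43212095-43213674 to chr17:43274551-43276348 over 62.6 kb around HEXIM1 and HEXIM2, which encode inhibitors of the elongation kinase P-TEFb. CTCF was counted 212 times and RAD21 130 times in wild type, and 99 and 36 times in ZNF143KO. The CTCF ratio of 0.467 (0.364 to 0.596) lay above the RAD21 ratio of 0.277 (0.186 to 0.403), with intervals that overlap. The fourth, chr12:52416866-52420199 to chr12:52476783-52478085 (58.9 kb), starts at NR4A1, a nuclear receptor gene of the immediate early response, and spans ATG101, an autophagy gene. Its CTCF count went from 165 to 54 and its RAD21 count from 162 to 56, ratios of 0.327 and 0.346.

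The next 8 had wild-type CTCF counts of 156 down to 103. On chromosome 7 a loop of 165.5 kb across RALA, a small GTPase gene, had CTCF counts of 156 in wild type and 26 in ZNF143KO, and RAD21 counts of 196 and 45. On chromosome 3 a loop of 49.2 kb across most of DZIP1L, a gene of the primary cilium, had 149 and 43 for CTCF and 182 and 43 for RAD21. On chromosome 2 a loop of 122.8 kb across the start of SLC1A4, a neutral amino acid transporter gene, had 127 and 20 for CTCF and 145 and 26 for RAD21. All 3 had more RAD21 than CTCF counts in wild type.

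The eighth loop stood apart from the other 11. It joined chr1:161534518-161536723 to chr1:161615908-161618116 (81.4 kb) and kept 102 of 124 CTCF counts, a ratio of 0.823 (0.627 to 1.08), and 116 of 117 RAD21 counts, a ratio of 0.991 (0.760 to 1.29). It was listed for ZNF143 neither in wild type nor in CTCF-AID cells. The region holds FCGR3B, an Fc receptor gene, and lies in a segmental duplication of near-identical copies. How the authors placed reads between such copies is not given in the sources used here, so its counts are uncertain. Among the other 11 the CTCF ratio ran from 0.142 to 0.467.

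Of the last 4, 3 are given here: a loop of 359.9 kb on chromosome 3 (CTCF 117 and 33, RAD21 136 and 30), one of 68.4 kb on chromosome 11 (113 and 23, 144 and 39) and one of 384.4 kb on chromosome 2 (103 and 18, 122 and 37), each pair being wild type and ZNF143KO. The first spans RTP4 and SST, the somatostatin gene. The last spans GLI2, a transcription factor of Hedgehog signalling. All 3 were lower in ZNF143KO for both proteins.

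**Figure D1:**
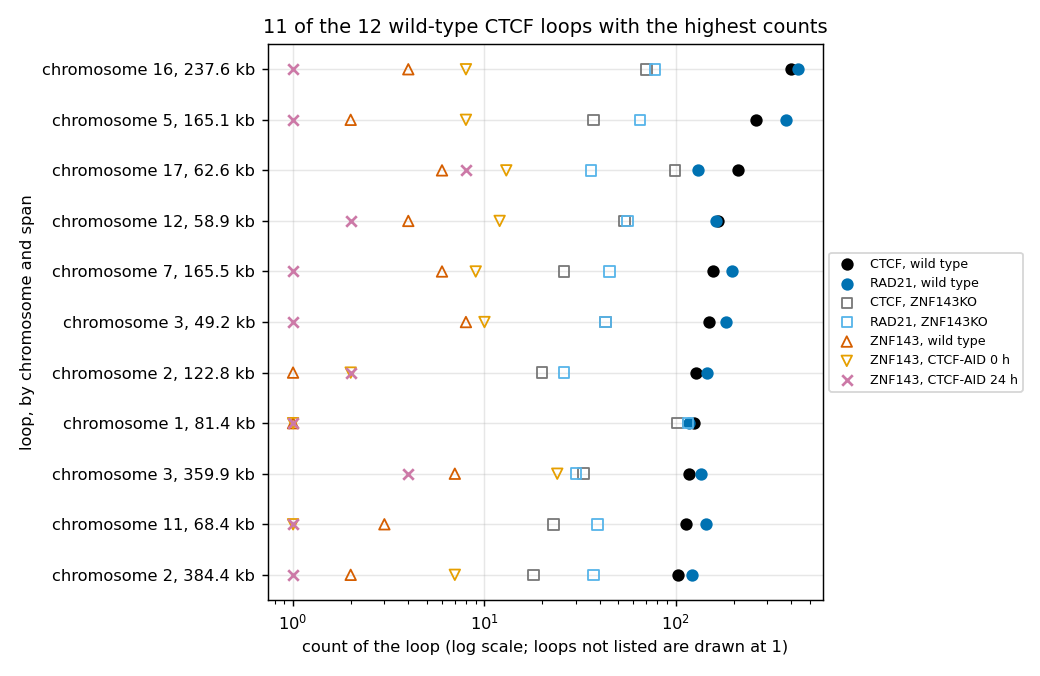
Counts of 11 of the 12 loops with the highest wild-type CTCF counts in all 7 libraries (1 library each, log axis; a loop not listed in a library is drawn at 1). Wild-type CTCF and RAD21 lie at the right, the ZNF143KO counts lie below them for all 11 loops and come closest on chromosome 1 (102 and 116), and ZNF143 counts lie at 24 or below.

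RAD21 was listed at nearly every strong CTCF loop. In wild type 329 of 331 members were listed (99.4%, 97.8 to 99.9), against a background of 46.4% over all wild-type CTCF loops. The share was higher at higher CTCF counts, from 27.3% at a count of 2 through 78.9% at 5 to 9 and 98.4% at 15 to 19, so the gradient had levelled before a count of 20 was reached. Their RAD21 counts ran from 4 to 432 with a median of 28, and summed to 12764. RAD21 was above CTCF in 134 members, equal in 13 and below in 182. With identical anchors required, 65.9% of members were listed, so this share depends on the match.

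The RAD21 count divided by the CTCF count had a median of 0.95 (0.889 to 1.00), and of 1.03 when each count was divided by the total of its list, so which protein was higher depends on the scaling. Within the members it was 0.966 at CTCF counts of 20 to 29, 0.892 at 30 to 49, 0.901 at 50 to 99 and 1.15 (0.944 to 1.26) in the 12 loops of 100 or more. Below the threshold it was 1.50 at a count of 2, 1.00 at 3 to 4 and 0.818 at 10 to 19, so it followed no single direction with the count. CTCF and RAD21 counts had a Spearman correlation of 0.62 over the 329 loops, which share their 2 libraries and in part their anchors. Loops ranked high for 1 protein were thus mostly high for the other. Of the 331 strongest wild-type RAD21 loops, 226 matched a member (68.3%).

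The ratio ran from 0.174 to 8.67, and its upper end came from neighbours. The 3 highest ratios were found at chr3:137786744, chr2:121452762 and chr17:43212095, where loops with CTCF counts of 21, 22 and 27 took RAD21 counts of 182, 122 and 130 from far stronger loops alongside. Without the extension the first 2 had RAD21 counts of 22 and 19 and the third was not listed. Over the 218 members with identical anchors in both lists the ratio ran from 0.241 to 2.25.

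At the low end 2 members were not listed for RAD21. The loop at chr7:99727922-99731383 (27.2 kb, CTCF count 21) was listed in neither RAD21 library and not for CTCF in ZNF143KO, so it rests on the wild-type CTCF library apart from a ZNF143 count of 2 at CTCF-AID 0 h. The loop at chr2:65215053-65216569 (52.0 kb, CTCF count 20) starts at SLC1A4 and lies inside the seventh strongest loop, with which it shares its second anchor. It was listed in ZNF143KO with counts of 4 for CTCF and 5 for RAD21. The next lowest, at chr1:6496668-6498947, had 4 RAD21 against 23 CTCF counts.

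**Figure D2:**
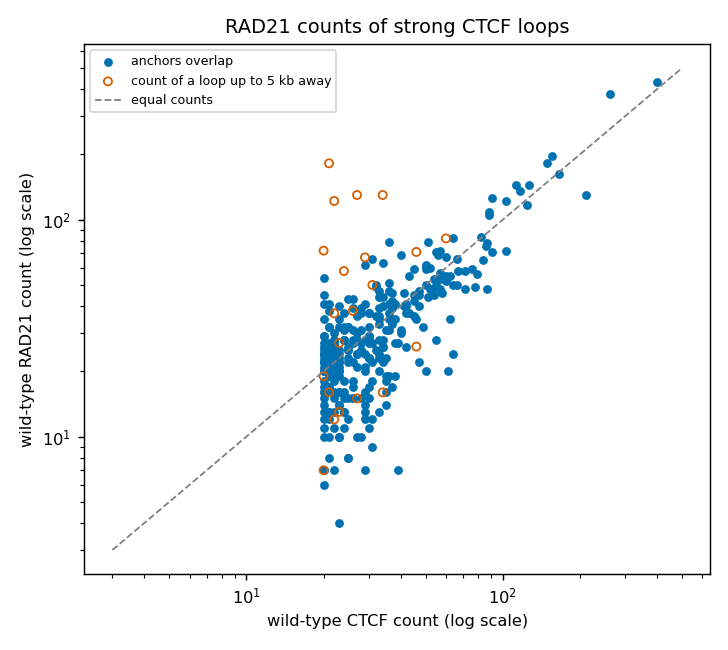
Wild-type RAD21 count against wild-type CTCF count for the 329 members listed in both libraries, log axes, with the line of equal counts; open circles mark counts taken from a loop up to 5 kb away. Points scatter about the line over the whole range, and the largest excesses of RAD21 at low CTCF counts are open circles.

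ZNF143 was listed at close to every second strong CTCF loop, at low counts. In wild type 158 of 331 members were listed (47.7%, 42.2 to 53.3), against 12.8% of all wild-type CTCF loops. The median count of those listed was 3, and matching loops held 1.73% of the ZNF143 list's total, against 16.8% of the RAD21 list's. The share was 43.8% at CTCF counts of 20 to 29, 43.0% at 30 to 49, 62.0% at 50 to 99 and 83.3% (51.6 to 97.9) in the 12 loops of 100 or more. It was 31.5% at 10 to 19. With identical anchors required it was 23.3%, so this share depends on the match.

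A ZNF143 count above the CTCF count was found in 4 members, among them the 3 with the highest ZNF143 counts. The loop at chr17:43237685-43238915 to chr17:43274551-43276348, whose first anchor lies at HEXIM2, had a ZNF143 count of 63, beside 21 for CTCF and 26 for RAD21. A loop of 39.0 kb at chr19:45942137-45943668, which spans FOSB, a subunit of the AP-1 transcription factor, took a ZNF143 count of 60 within 5 kb, and 20 without the extension, beside 33 for CTCF. A loop of 131.0 kb at chr2:85646928-85649109, which spans MAT2A, the S-adenosylmethionine synthase gene, took 35 within 5 kb and only 2 without the extension. The fourth, with 31 ZNF143 and 26 CTCF counts, was the other loop from the HEXIM2 anchor, chr17:43212095 to chr17:43237685. Without the extension only the 2 HEXIM2 loops among these 4 had more ZNF143 than CTCF counts.

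**Figure D3:**
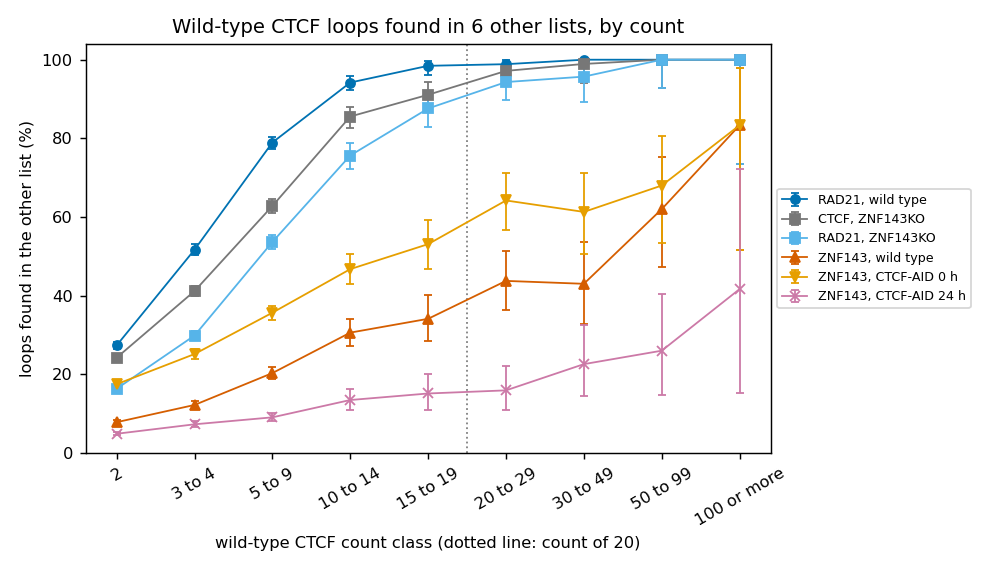
Share of wild-type CTCF loops found in each of the 6 other lists, by wild-type CTCF count (bars: exact 95% intervals, counting error only; dotted line: count of 20, above which the loops are members). RAD21 and the ZNF143KO lists reach 87.6% to 98.4% in the last class before the dotted line, while the 3 ZNF143 lists stay lower, at 15.9% to 64.2% in the class of 20 to 29.

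In ZNF143KO most of the strong loops were still listed, at lower counts. For CTCF 325 of 331 were listed (98.2%, 96.1 to 99.3), against 39.1% of all wild-type CTCF loops, and 316 had a lower count than in wild type. The median ratio of ZNF143KO to wild type was 0.297 (0.278 to 0.309), with quartiles of 0.200 and 0.417. Loops with wild-type counts of 15 to 19 came near these values, with 91.1% listed and a median ratio of 0.316 (0.267 to 0.353). A CTCF count of at most 0.5 of wild type, unlisted loops counted as 1, was found in 285 members (86.1%), and in 72.3% of all wild-type loops with a count of 4 or more. As the wild-type count chose the members, a lower count elsewhere is partly built into the choice, and nothing is read from this difference.

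RAD21 counts were not used to choose the members, although they go with the CTCF counts. Of the 329 members listed for RAD21 in wild type, 316 were listed in ZNF143KO (96.0%, 93.3 to 97.9), against 51.1% of all wild-type CTCF loops listed for RAD21. The median ratio was 0.298 (0.277 to 0.324), with quartiles of 0.200 and 0.429. At wild-type CTCF counts of 15 to 19 the share was 88.2% and the median ratio 0.333 (0.300 to 0.385). RAD21 counts of at most 0.5 of wild type were found in 273 of 329 members (83.0%, 78.5 to 86.9), unlisted loops counted as 1, beside a background of 76.1%. That background covers the 4911 wild-type CTCF loops with a wild-type RAD21 count of 4 or more and says nothing of weaker ones.

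The ZNF143KO lists also had lower totals. Divided by the totals of their lists, the median ratios were 0.519 for CTCF and 0.662 for RAD21. The CTCF values rest on the counts that chose the members and are a description only. Loops matching members held 16.6% of the wild-type CTCF total and 9.23% of the ZNF143KO one, and 16.8% and 11.9% of the RAD21 totals. Loops with a count of 20 or more numbered 331 in wild type and 48 in ZNF143KO for CTCF, and 379 and 53 for RAD21. Of the 331 strongest loops in ZNF143KO, 172 matched a member for CTCF and 161 for RAD21.

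The range of ratios was wide. Within 5 kb the CTCF ratio ran from 0.0423 to 3.67 and the RAD21 ratio from 0.0652 to 3.27. Without the extension the highest CTCF ratio was 1.35, while the highest RAD21 ratio remained 3.27. Both could be computed without the extension for 305 members, of which 293 were lower in ZNF143KO for both proteins. How many of all wild-type CTCF loops were lower was not counted. Within 5 kb their median ratios, where listed in both genotypes, were 0.818 for CTCF and 0.6 for RAD21. The log ratios of CTCF and RAD21 had a Spearman correlation of 0.36 over 312 loops, as measured in 2 pairs of libraries on the same loops, so loops that kept more CTCF counts only loosely kept more RAD21 counts.

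**Figure D4:**
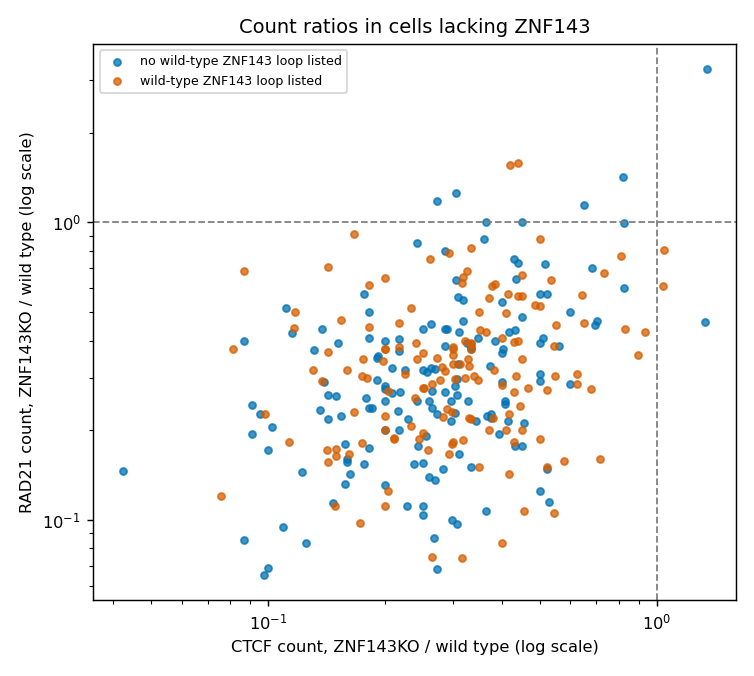
Ratio of ZNF143KO to wild-type counts for RAD21 against the same ratio for CTCF, 1 point per member (305 members, anchors overlapping without extension, log axes, dashed lines at equal counts), coloured by whether a wild-type ZNF143 loop was listed. In all, 293 points lie below both dashed lines, 4 lie to the right of the CTCF line and 1 lies above both.

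Lower ends of the range were reached at several places. The loop at chr10:4891442-4892886 to chr10:4992636-4994960 went from 71 CTCF counts to 3, a ratio of 0.0423 (0.00851 to 0.129), and from 48 RAD21 counts to 7. A loop of 28.3 kb at chr9:35881368-35884478 went from 28 CTCF counts to 2, and from 27 RAD21 counts to none listed. A loop of 146.8 kb at chr7:100302377-100303611 went from 37 to 3 for CTCF but from 40 to 15 for RAD21, ratios of 0.0811 (0.0160 to 0.256) and 0.375 (0.192 to 0.694). Both proteins were low in the first pair of loops, and in the last CTCF was lower than RAD21.

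Not listed for CTCF in ZNF143KO were 6 members, with wild-type counts of 31, 25, 23, 21, 21 and 21. The strongest of them, at chr6:132599885-132601896 (205.0 kb), had 27 RAD21 counts in wild type and none listed in ZNF143KO. At chr19:48769718 RAD21 went from 25 to 9, at chr9:75721790 from 40 to 6, at chr8:23152319 from 25 to 5 and at chr15:72092976 from 12 to 3. The sixth was the chromosome 7 loop without RAD21 described above. Thus 4 of the 6 loops were still listed for RAD21 in ZNF143KO.

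A higher CTCF count in ZNF143KO was found in 9 members, and in 4 of them without the extension. In those 4 the counts were 26 and 27 at chr17:43212095 to chr17:43237685, 21 and 22 at chr17:43237685 to chr17:43274551, 24 and 32 at chr11:65546503 and 20 and 27 at chr7:64676281, each in wild type and ZNF143KO. These loops had wild-type counts just above the threshold, and the differences carry no test. The chromosome 7 loop, of 510.5 kb, was the only one of the 4 with a higher RAD21 count in ZNF143KO, at 15 and 49, a ratio of 3.27 (1.80 to 6.27). Of the other 5, 4 are a pair of loops on chromosome 17 at 43208331 and 43212095, and loops at chr12:57605403 and chr3:137786744, whose own ZNF143KO counts of 4, 20, 15 and 9 lay below wild-type counts of 34, 27, 24 and 21.

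Without the extension RAD21 was lower in ZNF143KO at 301 members, a number not counted over all CTCF loops, and higher at 7. Besides the chromosome 7 loop these were at chr15:42064323 (9 and 14), chr6:39133769 (12 and 19), chr1:6496668 (4 and 5), chr1:23823086 (11 and 13), chr1:149271968 (19 and 27) and chr1:16950554 (7 and 8), given as wild type and ZNF143KO. Of the 7, 4 were on chromosome 1, and in 6 the CTCF count was lower in ZNF143KO. The loops at 149271968 and 16950554 lie in parts of chromosome 1 known for near-identical copies, so their counts are uncertain in the same way as those at FCGR3B.

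Members with a ZNF143 loop in wild type were not lower in ZNF143KO than members without one. The CTCF ratio had a median of 0.316 (0.292 to 0.339) in the 158 members with a listed ZNF143 loop and of 0.273 (0.250 to 0.303) in the 173 without. The RAD21 ratios were 0.318 (0.286 to 0.347) and 0.270 (0.250 to 0.318). Both medians were higher where ZNF143 was listed, with intervals that overlap. The members with ZNF143 were also shorter, with a median span of 98.1 kb against 122.8 kb.

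ZNF143 counts at the strong loops were lower after 24 h of auxin. In CTCF-AID cells 214 members were listed for ZNF143 at 0 h (64.7%, 59.2 to 69.8; background 24.7%) and 67 at 24 h (20.2%, 16.0 to 25.0; background 6.88%). Of the 214, 61 were listed at both times (28.5%, 22.6 to 35.1), against 21.4% (20.2 to 22.6) of the other CTCF loops listed at 0 h. Among these 61 the count was lower at 24 h in 49, equal in 8 and higher in 4. Their median ratio of 24 h to 0 h counts was 0.538 (0.348 to 0.667). In the other CTCF loops listed at both times it was 1 (1 to 1). The median count of both whole lists was 2, the lowest that is listed. What part this has in the difference was not tested. The number listed at 24 h was 0.313 times that at 0 h for members and 0.277 times (1262 and 4550) for the other CTCF loops. The whole ZNF143 list held 0.510 times as many loops at 24 h as at 0 h (20587 and 40405). Its total count was 0.719 times that at 0 h (102962 and 143119). Listing was thus lower at 24 h in members, in the other CTCF loops and in the list as a whole. The shares listed depend on the match: with identical anchors required, 29.3% of members were listed at 0 h and 3.63% at 24 h, and 9 at both times.

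The loops with most ZNF143 differed from each other here. The HEXIM2 loop to 43274551 had ZNF143 counts of 44 at 0 h and 35 at 24 h, and the other loop from the HEXIM2 anchor had 44 and 53. The FOSB loop had 70 and 67, or 36 and 33 without the extension. The MAT2A loop had 53 at 0 h, or 4 without the extension, and was not listed at 24 h. Of the 12 strongest CTCF loops, 10 were listed at 0 h and 5 at 24 h, with at most 8 counts at 24 h.

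The strong loops were shorter than the rest of the CTCF list, with a smaller share of very long loops. Their median span was 112.9 kb (98.2 to 130.8), against 154.6 kb (152.2 to 157.9) for the CTCF loops with counts of 2 to 19. Spans of 20 to 50 kb made up 21.5% of members and 16.0% of the other loops. Spans above 500 kb made up 2.42% (8 loops) and 11.5%. Loops with a count of 10 to 19 had a median span of 118.0 kb, close to the members, and loops with a count of 2 had 174.5 kb.

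The longest member joined chr3:187455731 to chr3:188671587 over 1215.3 kb, from BCL6, a repressor of germinal centre B cells, past LPP, a focal adhesion gene. It had 54 CTCF and 53 RAD21 counts in wild type, and 19 and 23 in ZNF143KO. The next were 731.0 kb at chr2:176230583 (27 CTCF counts) and 583.9 kb at chr10:4891442 (23). The shortest were 20.1 kb at chr12:52396832 (30), 20.8 kb at chr5:131840645 (20) and 21.6 kb at chr11:58420972 (22), near the shortest span that the list holds.

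Longer members had lower ratios in ZNF143KO up to 500 kb. The median CTCF ratio was 0.343 (0.302 to 0.407) at 20 to 50 kb, 0.318 (0.292 to 0.391) at 50 to 100 kb, 0.276 (0.243 to 0.303) at 100 to 200 kb and 0.250 (0.208 to 0.286) at 200 to 500 kb. For RAD21 it was 0.351, 0.300, 0.271 and 0.250 in the same order. The 8 loops above 500 kb did not continue this, at 0.306 and 0.429. Over all members, span and ratio had a Spearman correlation of -0.23 for CTCF (325 loops) and -0.16 for RAD21 (316), which is weak. ZNF143 listing also went down with span, from 54.9% at 20 to 50 kb to 36.7% at 200 to 500 kb, as it did in the other CTCF loops, from 18.7% to 8.46%.

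Members often lay inside one another and shared anchors. Of 331, 85 lay inside another member and 80 held one, 23 being both, so 142 were nested in 1 of these ways (42.9%, 37.5 to 48.4). Among loops with counts of 15 to 19 and 10 to 14, nesting within the class was 17.4% and 34.8%, but the share depends on how many loops a class holds (258 and 706). Of the 132 nested pairs 116 shared an anchor. The inner loop had the higher CTCF count in 71 pairs and the higher RAD21 count in 69, so neither the inner nor the outer loop was regularly the stronger.

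Merging overlapping anchors left 562 for the 331 members, of which 75 served more than 1 member (13.3%, 10.6 to 16.4). Of these 63 served 2, 7 served 3, 2 served 5 and 3 served 6. Only 14 ended 1 member and started another, so most shared anchors were used in 1 direction. Among wild-type CTCF loops of any count, these anchors were used by a median of 6 loops and at most 27, against a median of 1 for the 16386 other anchors. Joined through shared anchors, the members formed 238 groups, of which 179 were single loops, 45 held 2 and 14 held 3 or more.

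Members inside another one had a median CTCF ratio in ZNF143KO of 0.355 (0.300 to 0.407), those that only held one 0.273 (0.226 to 0.328) and the rest 0.286 (0.250 to 0.303). The RAD21 ratios were 0.321 (0.268 to 0.364), 0.263 (0.220 to 0.375) and 0.300 (0.278 to 0.333). Inner loops were also shorter, at a median of 77.1 kb against 149.3 and 121.8 kb, and the CTCF counts of some were those of a stronger neighbour. The part of span and of neighbours in these ratios was not tested.

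The largest group lay around HEXIM1 and HEXIM2 on chromosome 17, with 10 loops on 9 anchors over 141.0 kb and a summed CTCF count of 561. The anchor at 43212095 served 6 of them. Overlapping loops in ZNF143KO, each counted once, had a summed CTCF count of 272, a ratio of 0.485, and RAD21 went from 323 to 143. The loops differed: the third strongest loop went from 212 to 99, its neighbour to 43308049 from 87 to 35 and the loop to 43295866 from 47 to 24, while both loops from the HEXIM2 anchor kept their CTCF counts (26 and 27, 21 and 22). Those 2 loops also had the most ZNF143 of the 10, 31 and 63 counts. Their RAD21 counts went from 18 to 11 and from 26 to 21.

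On chromosome 1, 6 loops on 7 anchors spanned 539.7 kb, all sharing the anchor chr1:225661310-225663660, with a summed CTCF count of 256. The region holds ENAH, an actin regulator, SRP9, a signal recognition particle gene, and EPHX1, an epoxide hydrolase gene, and the anchors of the 2 strongest loops lie at the starts of SRP9 and EPHX1. These loops went from 79 to 34 and from 55 to 33 CTCF counts in ZNF143KO. Over the group the CTCF counts went from 256 to 125, a ratio of 0.488, and the RAD21 counts from 133 to 61. ZNF143 was listed for 1 of the 6, with a count of 2.

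On chromosome 10, 6 loops fanned out from the anchor chr10:4891442-4892886 over 585.3 kb, across AKR1C1, AKR1C2 and AKR1C3, which encode aldo-keto reductases of steroid and carbonyl metabolism. Their CTCF counts in wild type were, from the shortest to the longest loop, 71, 40, 49, 22, 25 and 23. In ZNF143KO they were 3, 15, 10, 8, 5 and 2. The group went from 230 to 43 CTCF counts, a ratio of 0.187. For RAD21 the 4 loops listed in both genotypes went from 126 to 21 RAD21 counts, a ratio of 0.167, and the loops to 5135480 and 5475294, with 16 counts each in wild type, were not listed in ZNF143KO. All 6 loops were lower in ZNF143KO, the ratio of the group was below those of the other 2, and the shortest, which was the strongest in wild type, had the second lowest count in ZNF143KO.

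**Figure D5:**
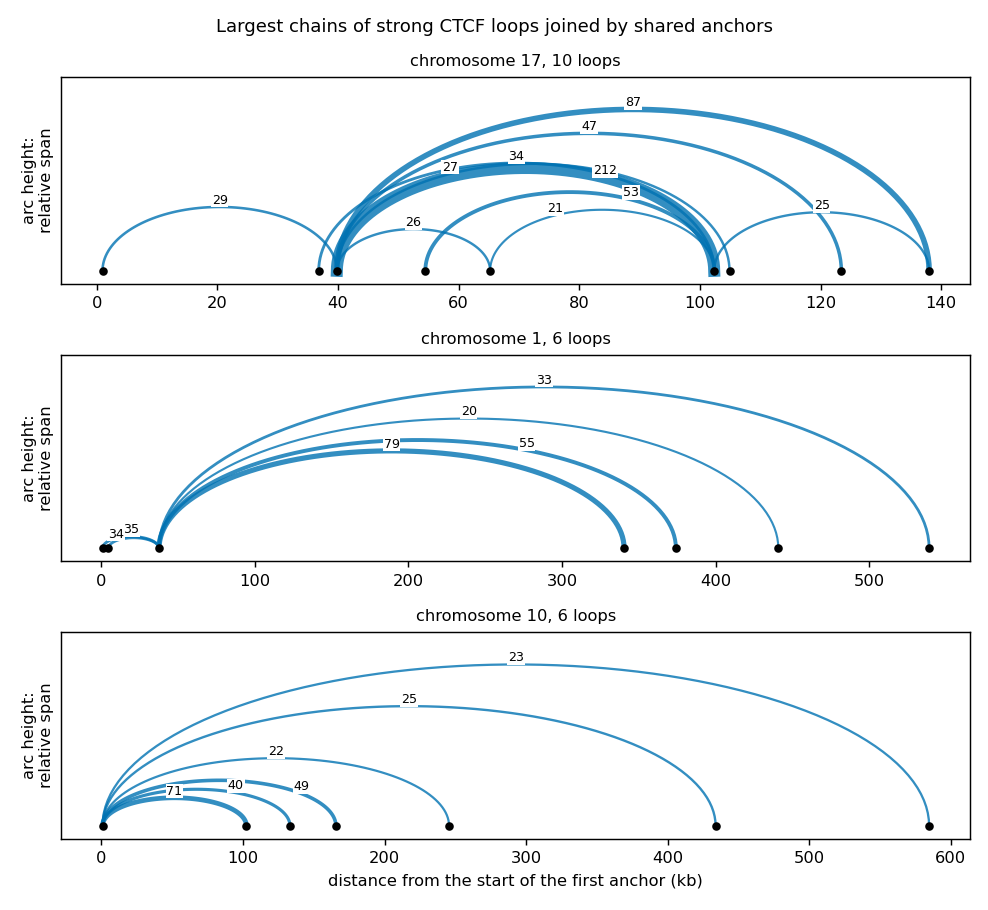
The 3 largest groups of members joined by shared anchors, on chromosomes 17, 1 and 10; each arc is 1 loop, its height follows the span and its width and label the wild-type CTCF count, and dots mark anchors by distance in kb from the first. On chromosomes 1 and 10 a single anchor takes part in all 6 loops, and on chromosome 17 the heaviest arc (212) lies among 9 others.

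The number of members differed between chromosomes. Chromosome 1 held 46, chromosome 17 held 35, chromosome 3 held 30 and chromosome 12 held 27. As a share of each chromosome's CTCF loops this was 2.03% (1.49 to 2.70) on chromosome 1, 1.74% on chromosome 3 and 2.06% (1.36 to 2.98) on chromosome 12. Over all loops it was 1.71%. The share was highest on chromosome 17, at 2.73% (1.91 to 3.78) of 1282 loops. Its 35 members include the group of 10 linked loops around HEXIM1 and HEXIM2, which the interval treats as independent. It was 0.585% (0.0709 to 2.10) on chromosome 4, with 2 of 342, and on chromosome 13 no member was found among 318 loops, which allows a share of up to 1.15%.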

How the data were processed

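Loop lists of 7 HiChIP libraries were used, with groups taken from the sample titles. The deposited values are whole-number counts per loop, made by the authors. The submitters' processing notes name HiC-Pro and hg19, while the loop caller, its filters, the aligner and any pooling of runs are not given in the sources used here. Per the labels' protocols the chromatin was cut with MboI. The deposited counts were used unscaled in all 7 lists (totals 33460 to 143119). Python 3.11.15, pandas 2.3.3, scipy 1.17.1 and networkx 3.6.1 were used.

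Members are wild-type CTCF loops with a count of 20 or more. The members and the choice of what to describe were made with earlier results of these data known. Loops were matched within 5 kb at both anchors, and the highest matching count was taken. Ratios use loops listed in both libraries. Shares carry exact Clopper-Pearson intervals, medians order-statistic intervals from the binomial, and single ratios intervals from the exact binomial split of both counts, all at 95%. The matching, nesting and interval code was tested on simulated data. Loops nest where the outer limits of one lie within those of another, extended by 5 kb.

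Named are the 12 highest CTCF counts (ties to the shorter span), the 3 highest and lowest RAD21 ratios, the 3 highest ZNF143 counts, loops unlisted or higher for CTCF in ZNF143KO, the 3 lowest CTCF ratios, the 3 longest and shortest loops, the 2 largest groups, the anchor with most members (3 anchors tied at 6) and 3 loops on either side of the threshold. The third group, the loops with more RAD21 in ZNF143KO and the fourth loop with more ZNF143 than CTCF were added after their values were seen. The planned shares of loops with a gene start or convergent CTCF motifs need GRCh37 annotation and sequence, which were not used here. A loop among the 12 strongest and a loop beside it are not reported here. Alternatives were minimum counts of 15 and 30, extensions of 0 and 10 kb, summed matches and counts divided by list totals.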

Additional observations from a re-analysis of the deposited data

How the results depend on the processing

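For 12 results, 63 alternative values were computed, of which 42 moved by less than their interval and 21 by more. The median ratio of RAD21 to CTCF in wild type was 0.95 (0.889 to 1.00), and 1.03 (0.964 to 1.08) with counts divided by list totals. Both intervals include 1, so no direction is read from these values. With matches summed it was 1.00. The RAD21 ratio of ZNF143KO to wild type stayed below 1 under every alternative run. Its denominator goes with the CTCF counts that chose the members (Spearman correlation 0.62). It was also below 1, at 0.625, in the CTCF loops with counts of 2 to 19, so nothing particular to the members is read from this. The CTCF ratio has as its denominator the count that chose the members under each alternative. With a minimum count of 15 the shares listed were 41.8% for wild-type ZNF143, 95.1% for CTCF in ZNF143KO and 92.6% for RAD21 in ZNF143KO, 49.1% of loops were nested and 16.5% of anchors were shared. With a minimum of 30 the shares were 100% for wild-type RAD21, 99.4% for CTCF in ZNF143KO and 25.2% for ZNF143 at 24 h, and 34.8% were nested. Without the extension ZNF143 was listed at 58.9% of members at 0 h and 14.8% at 24 h. Divided by list totals the median ratios were 0.519 for CTCF in ZNF143KO and 0.662 for RAD21 in ZNF143KO. With matches summed the CTCF ratio was 0.32. Identical anchors, an alternative chosen after seeing the data, gave shares of 65.9% for wild-type RAD21, 23.3% for wild-type ZNF143, 71.9% and 66.5% for CTCF and RAD21 in ZNF143KO, and 29.3% and 3.63% for ZNF143 at 0 h and 24 h. The median ratios were then 0.907 for RAD21 over CTCF, 0.289 for CTCF in ZNF143KO and 0.277 for RAD21 in ZNF143KO. The cause of these differences was not tested. The results that need a GRCh37 annotation or sequence were not run. No paired analysis was possible because each group held 1 library.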
